A study of Mus musculus with 8 samples.

Results

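The replication-dependent histone genes encode the core histones H2A, H2B, H3 and H4 and the linker histone H1, and they lie in clusters. The genes described here are the autosomal protein-coding genes whose GENCODE M21 names start with Hist1h, Hist2h, Hist3h or Hist4h, which gave 67 of 20780 autosomal protein-coding genes: 6 of type H1, 18 of H2A, 18 of H2B, 12 of H3 and 13 of H4. Membership rested on names alone and used no measured value. Open chromatin was mapped with ATAC-seq, an assay built on a transposase that inserts adapters into exposed DNA. Both cell types came from lineage-depleted bone marrow and carried c-KIT, and LSK+ cells also carried SCA-1, which LSK− cells lacked; the first are enriched in stem and multipotent progenitor cells and the second are mostly committed progenitors. Each cell type came from wild-type (WT) and XistΔ/Δ mice, which lack Xist, the RNA that coats the inactive X chromosome, so that a question for autosomal genes was whether their accessible sites differed with the loss of Xist or between the cell types.

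All donors were 4.5-month-old females of strain 129Sv4/Jae x B6, and about 10000 sorted cells entered each reaction. The XistΔ/Δ mice carried floxed Xist alleles and a Cre transgene under the Vav1 promoter, which acts in blood-forming cells, so that other tissues of the host kept Xist. There were 4 groups (LSK+ WT, LSK+ XistΔ/Δ, LSK− WT and LSK− XistΔ/Δ) with 2 libraries each. The study's methods call these biological replicates, but the labels do not tie them to animals, so p-values measure the spread between these libraries. In every group replicate 1 was sequenced on an MGISEQ-2000 with reads of 100 bases and replicate 2 on a NovaSeq with reads of 50 bases.

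Histone genes of this class are transcribed mainly in S phase, when new DNA has to be packaged. Their mRNAs end in a stem-loop in place of a poly(A) tail, NPAT and other factors gather at the clusters in the histone locus body, and H2A and H2B genes often stand head to head and share a promoter. A few members, such as Hist1h1t, Hist1h2aa and Hist1h2ba, encode histones of male germ cells.

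Most members lay on chromosome 13 (mm10), in 4 groups separated by more than 100 kb. The first (chr13:21715763-21837530) held 18 genes, the second (chr13:22035164-22043676) 5, the third (chr13:23531050-23764406) 29, and the last (chr13:23933773-23934851) only the germ-cell pair Hist1h2ba and Hist1h2aa. A further 10 genes lay on chromosome 3 (chr3:96219865-96270132), 2 on chromosome 11 (Hist3h2ba and Hist3h2a) and 1 on chromosome 6 (Hist4h4).

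The promoters below are shown because the results turn on these genes: Hist1h2ac belonged to the strongest head-to-head pair, Hist1h3d and Hist1h4b differed between the WT cell types, Hist1h4k had a peak in XistΔ/Δ libraries but in no WT library, Hist1h2bq had no peak and a promoter with an exact copy, Hist1h2ba had no peak although its sequence is largely unique, and Hist1h1t had no peak at its own start. Each is the RefSeq window (GRCm38.p6) from 250 bases before to 50 after the gene start, written 5′ to 3′ on the gene's strand, and capitals mark matches, on either strand, to any of the 4 words spelled out after the sequences.
Hist1h2ac (chr13:23683910-23684209, minus strand): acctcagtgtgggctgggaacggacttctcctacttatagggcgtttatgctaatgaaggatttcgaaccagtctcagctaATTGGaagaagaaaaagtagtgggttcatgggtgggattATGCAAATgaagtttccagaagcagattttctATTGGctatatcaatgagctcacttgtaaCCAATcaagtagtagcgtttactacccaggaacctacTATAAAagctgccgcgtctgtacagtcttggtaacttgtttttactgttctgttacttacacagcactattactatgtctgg
Hist1h3d (chr13:23575513-23575812, plus strand): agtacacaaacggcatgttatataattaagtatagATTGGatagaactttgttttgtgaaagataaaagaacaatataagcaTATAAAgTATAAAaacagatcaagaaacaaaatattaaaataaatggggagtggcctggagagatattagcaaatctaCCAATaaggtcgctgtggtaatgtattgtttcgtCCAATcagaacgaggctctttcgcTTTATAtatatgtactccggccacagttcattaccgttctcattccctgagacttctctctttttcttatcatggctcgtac
Hist1h4b (chr13:23756687-23756986, plus strand): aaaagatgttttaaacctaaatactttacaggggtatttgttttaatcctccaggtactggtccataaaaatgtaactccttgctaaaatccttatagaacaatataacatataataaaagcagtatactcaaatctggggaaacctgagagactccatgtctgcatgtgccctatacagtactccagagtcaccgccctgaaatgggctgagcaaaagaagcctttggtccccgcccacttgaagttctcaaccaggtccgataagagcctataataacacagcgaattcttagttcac
Hist1h4k (chr13:21750504-21750803, minus strand): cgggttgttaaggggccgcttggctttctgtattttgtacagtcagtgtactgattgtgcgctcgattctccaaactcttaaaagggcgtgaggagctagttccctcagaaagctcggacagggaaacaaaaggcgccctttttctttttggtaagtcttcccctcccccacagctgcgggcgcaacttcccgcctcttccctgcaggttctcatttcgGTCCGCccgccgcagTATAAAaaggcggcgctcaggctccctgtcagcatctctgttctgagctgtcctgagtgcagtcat
Hist1h2bq (chr13:21810150-21810449, minus strand): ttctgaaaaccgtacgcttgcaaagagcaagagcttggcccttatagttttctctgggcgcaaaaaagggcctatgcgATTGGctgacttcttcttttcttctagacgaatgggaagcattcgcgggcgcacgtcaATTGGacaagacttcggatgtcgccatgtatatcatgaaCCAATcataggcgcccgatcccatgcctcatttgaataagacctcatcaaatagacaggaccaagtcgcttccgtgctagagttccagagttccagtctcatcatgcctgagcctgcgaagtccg
Hist1h2ba (chr13:23934107-23934406, minus strand): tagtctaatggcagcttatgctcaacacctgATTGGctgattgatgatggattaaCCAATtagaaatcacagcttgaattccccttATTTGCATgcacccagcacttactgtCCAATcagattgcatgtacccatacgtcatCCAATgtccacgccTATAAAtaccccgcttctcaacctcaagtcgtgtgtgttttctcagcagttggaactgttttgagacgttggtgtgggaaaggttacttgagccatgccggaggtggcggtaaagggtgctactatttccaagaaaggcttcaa
Hist1h1t (chr13:23695561-23695860, plus strand): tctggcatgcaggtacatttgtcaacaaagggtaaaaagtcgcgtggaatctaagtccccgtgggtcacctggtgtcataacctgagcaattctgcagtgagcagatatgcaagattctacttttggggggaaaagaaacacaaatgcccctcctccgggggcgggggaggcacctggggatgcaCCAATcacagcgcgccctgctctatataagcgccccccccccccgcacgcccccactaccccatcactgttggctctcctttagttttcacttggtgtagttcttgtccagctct

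The first word searched was the core of a TATA box (TATAAA). The second was the CCAAT box, which the factor NF-Y binds. The third was the octamer that POU2F1 binds, spelled ATTTGCAT. The last, GTCCGC, lies in the promoter element of H4 genes that HINFP binds, and is called the H4 word here. All were searched on both strands, and no spelling contains another. A match is a description of the letters and not evidence of a bound site.

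A RefSeq promoter was matched for 62 of the 67 members. The CCAAT box stood in 53 of the 62 (85.5%) and in 37.4% of 32851 promoters of the same length from all genes. It was present in every matched H1, H2A, H2B and H3 promoter but in only 3 of 12 H4 promoters. The H4 word showed the opposite distribution, with 9 of 12 H4 promoters (75.0%), 7 of 18 in H2A, 2 of 16 in H2B, 1 of 10 in H3 and 0 of 6 in H1, against 9.44% of all promoters. The octamer was found in 7 of 18 H2A and 6 of 16 H2B promoters, in none of the matched promoters of the other 3 types, and in 1.74% of all promoters. The TATA word stood in 35 of the 62 (56.5%) against 13.6% of all. The windows of head-to-head H2A and H2B genes overlap, for example those of Hist1h2ah and Hist1h2bk. A single match can therefore count in both types, so these counts are not independent. In the Hist1h2ac promoter shown above, the TATA word began at base −32 from the start and the octamer, on the opposite strand, at −130. In Hist1h4k the H4 word began at −31. None of the 4 words occurred in the Hist1h4b window. Hist1h2bq and Hist1h2br shared all 300 bases.

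A member was counted as having a peak when a deposited peak overlapped the gene or lay within 1 kb of it. In LSK+ cells 59 and 57 of the 67 members had a peak in the WT libraries and 60 and 61 in the XistΔ/Δ libraries, in replicate order. LSK− counts were 59 and 58 (WT) or 61 and 60 (XistΔ/Δ). Among all autosomal protein-coding genes the share with a peak was 74.5%, 66.2%, 76.9% and 75.2% in the LSK+ libraries and 73.3%, 67.1%, 75.9% and 73.4% in the LSK− libraries, in the same order, while the members' share lay between 85.1% and 91.0%. A peak was present in all 8 libraries at 56 members (83.6%), against 62.2% of all genes, and in none at 5 members (7.46%), against 20.2%. Presence thus varied by at most 4 members between any libraries, and the 4 groups overlapped in their counts except that both XistΔ/Δ libraries stood above both WT libraries in each cell type. The XistΔ/Δ lists were also longer than the WT list of the same replicate number and cell type, and the part of list length in these counts was not tested.

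Peaks were ranked within each list by the −log10 p of the peak caller and given as a percentile, with 100 for the strongest peak of the list. Over members with a peak, LSK+ replicates 1 and 2 had median percentiles of 96.4 and 88.4 (WT) or 97.0 and 92.1 (XistΔ/Δ), and LSK− replicates of 98.3 and 93.2 (WT) or 98.6 and 94.0 (XistΔ/Δ). Over all genes with a peak the corresponding medians ran from 77.4 to 90.3. Members stood above all genes in each of the 8 libraries, by a median of 10.7 percentile points (range 4.96 to 11.6), and the replicate 1 library stood above the replicate 2 library in every group.

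The order depended on which column of the peak list was read. By fold enrichment, the height of a peak over its local background, the members' median percentile was 67.5 to 79.2 and that of all genes 76.6 to 86.3, so that members stood below all genes in each of the 8 libraries, with a median difference of −8.71 percentile points (range −14.5 to −3.55). The local background also differed. Solving the fold and −log10 p of each strongest peak for its fragment count and background gave a median background at members of 10.3 to 15.9 times the value most common in the list, against 3.27 to 4.83 times over all genes with a peak. The same solution gave a median of 84 to 596 fragments at the summit of members' strongest peaks and of 43 to 193 at those of all genes. Both medians were higher at members in all 8 libraries.

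**Figure D1:**
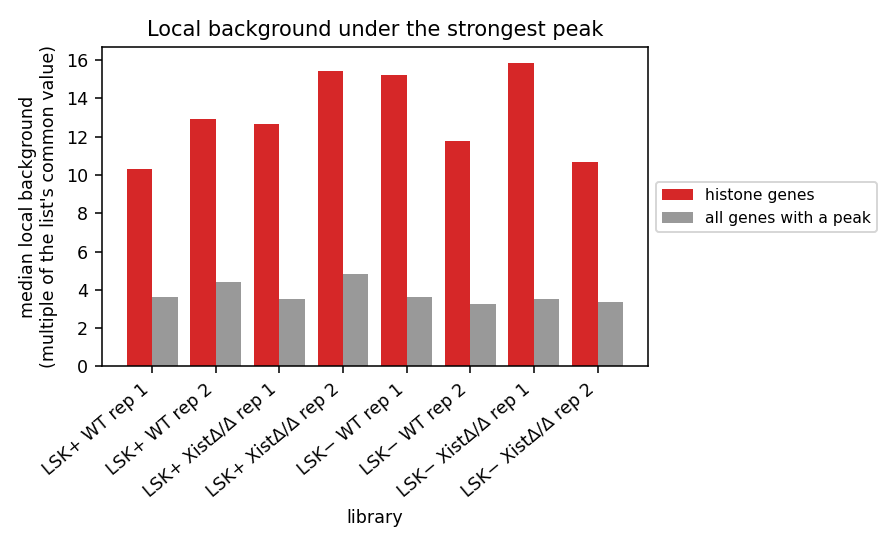
Median local background under the strongest peak of histone genes (red) and of all genes with a peak (grey) in each library, as a multiple of the background value most common in that list. Bars start at 0, and the histone genes' bar is the higher in all 8 libraries (10.3 to 15.9 against 3.27 to 4.83).

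The 5 members with no peak in any library fell into a pair of kinds. Hist1h2bq, Hist1h2ao and Hist1h2br, all in the first chromosome 13 group, lie in near-identical copies: 0%, 2.06% and 0% of the 50-base words in these genes and their 1 kb flanks occur once in the genome, and 0%, 4.20% and 0% of the 100-base words. The authors removed reads with an alignment quality below 30, and how far that set the missing peaks here was not tested. Hist1h2ba and Hist1h2aa, the germ-cell H2B and H2A genes, also had no peak, although 94.1% and 93.9% of their 50-base words are unique. Of the 4 members with under 5% unique words none had a peak in all libraries, whereas 4 of the 5 members between 5% and 50% and 52 of the 58 above 50% did.

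Hist1h1t, which encodes the testis H1, would count as having a peak in 7 libraries, but that peak was the one of its neighbour Hist1h4c. Its summit lay 2644 to 2653 bp past the start of Hist1h1t and within 13 bp of the start of Hist1h4c. No library had a peak within 500 bp of the start of Hist1h1t, and all of its 50-base words are unique. All 3 germ-cell members were among the 8 members with no peak within 500 bp of their start in any library, while 53 of the 67 had one in all 8 (48.2% of all genes did). The others were Hist1h2ao, Hist1h2ap, Hist1h2bq and Hist1h2br, with few unique words, and the somatic H1 gene Hist1h1d. Hist1h1d had a peak in every library (88.4 to 97.7), with its summit 1764 to 1921 bp past the GENCODE start, and the RefSeq start used for promoters lies 1770 bp from that start.

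**Figure D2:**
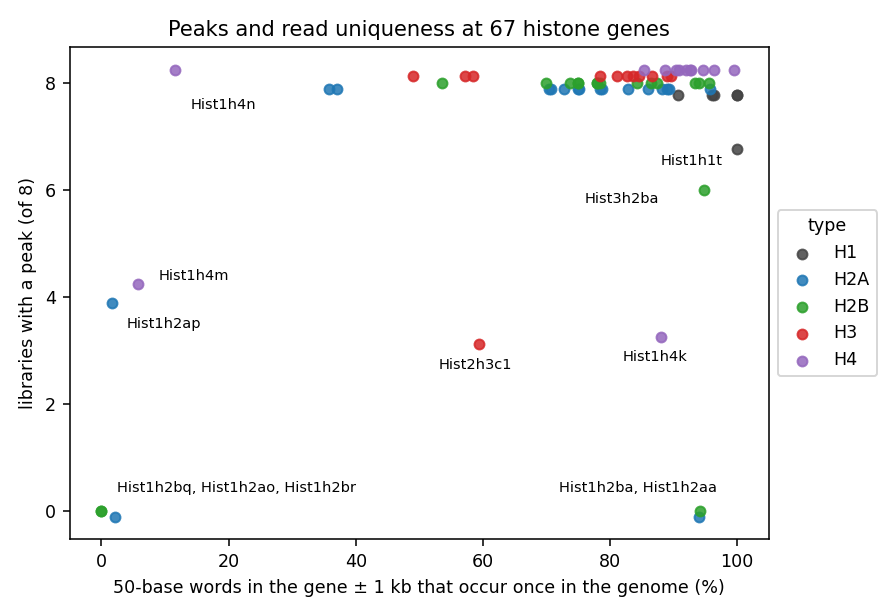
Each point is 1 of the 67 histone genes, coloured by type, with the percentage of 50-base words in the gene and its 1 kb flanks that occur once in the genome on the x axis and the number of libraries with a peak on the y axis (points of a type are shifted slightly to show overlaps). Genes without a peak sit at both ends of the x axis, with Hist1h2bq, Hist1h2ao and Hist1h2br near 0% and Hist1h2ba and Hist1h2aa near 94%.

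A pair of members followed the replicate number in every group, which platform and read length share, so these cannot be told apart. Hist1h4m, an H4 gene with 5.82% unique 50-base words, had a peak only in the replicate 1 libraries, at percentiles 44.9 and 71.0 in LSK+ WT and XistΔ/Δ and 82.4 and 82.8 in LSK− WT and XistΔ/Δ. Hist1h2ap, an H2A gene with 1.69%, had a peak only in the replicate 2 libraries, at 56.5, 89.5, 87.6 and 91.4. This peak belonged to the neighbouring H4 gene Hist1h4n, whose own strongest peak had its summit 649 to 664 bp past its start in the replicate 1 libraries and 35 to 43 bp past it in the replicate 2 libraries. Over all genes, 0.308% had a peak in just the 4 replicate 1 libraries and 0.0192% in just the 4 replicate 2 libraries.

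Among the core histones, H2A and H2B genes had higher median percentiles than H3 and H4 genes in every library. These medians mix in peaks at neighbours of another type. The H3 genes Hist1h3h, Hist1h3c and Hist2h3b counted peaks with summits near the starts of Hist1h2ai, Hist1h2bb and Hist2h2bb. The H2A genes Hist1h2ab and Hist1h2af counted peaks near the starts of Hist1h3b and Hist1h3g, with summits 1171 to 1456 bp past their own starts. The part of such peaks in the order of the types was not tested. The median over H2A genes with a peak ranged from 88.8 to 99.1 across libraries and over H2B genes from 90.9 to 99.1, and 10 of 13 head-to-head pairs had the same strongest peak in all 8 libraries. Of these pairs 12 joined an H2A with an H2B gene and 1 an H2B with an H3 gene, with 176 to 660 bp (median 268) between the starts. In 9 pairs a single peak spanned both starts in all 8 libraries. The highest pair was Hist1h2ac and Hist1h2bc, with replicate 1 and 2 percentiles of 99.8 and 98.8 (WT) or 100.0 and 97.4 (XistΔ/Δ) in LSK+ cells, and of 99.9 and 98.5 (WT) or 100.0 and 98.1 (XistΔ/Δ) in LSK− cells. Its peak stood near the top of every list, higher in replicate 1 than in replicate 2 each time, and genotypes and cell types overlapped. Hist1h2ah and Hist1h2bk followed with a median of 97.9. Hist1h2bf and Hist1h2ad were the lowest of the pairs that shared a peak (93.4). The 3 pairs without a shared peak were Hist1h2ba with Hist1h2aa, Hist1h2bq with Hist1h2ao, and Hist1h2ap with Hist1h2br.

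Since head-to-head genes and close neighbours share peaks, members are not independent measurements. The 57 to 61 members with a peak in a library rested on 37 to 40 distinct strongest peaks, and up to 3 members shared one. In all, 46 to 55 peaks per library touched a member and 24 to 26 of them touched at least 2, whereas 2 to 14 peaks in the spans of the clusters touched none. Summits of the strongest peaks lay within 500 bp of the gene start for 66.7% to 75.0% of members (52.2% to 65.6% of all genes) and upstream of the start for 53.4% to 75.0% (36.7% to 41.6% of all genes).

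The peaks counted for linker histone genes were the widest in 7 of the 8 libraries, but some belonged to neighbours. Hist1h1t counted the Hist1h4c peak. Hist1h1a counted the strongest peak of Hist1h3a and Hist1h4a in all but LSK− WT replicate 2 and LSK− XistΔ/Δ replicate 2. There the peak at its own start was 378 and 445 bp wide, in that order. Median widths over H1 genes in LSK+ replicates 1 and 2 were 1641 and 1462 bp (WT) or 1497 and 1450 bp (XistΔ/Δ), and in LSK− replicates 1616 and 1345 bp (WT) or 1636 and 1349 bp (XistΔ/Δ). These medians overlapped between genotypes and between cell types. In LSK− XistΔ/Δ replicate 1, H2A (1638 bp) and H2B (1730 bp) genes were wider than H1 genes. H3 genes had the narrowest peaks in every library but LSK+ WT replicate 2, where H4 genes did (576 against 611 bp). The H2A and H3 medians also include the peaks near neighbours' starts named above. Across libraries H3 medians ran from 506 to 1087 bp, with H2A at 719 to 1638 bp, H2B at 819 to 1730 bp and H4 at 576 to 1130 bp. Over all members the median ran from 787 to 1379 bp and over all genes from 553 to 794 bp. The highest value for H2A, H2B, H3 and H4 came in each case from LSK− XistΔ/Δ replicate 1, the longest list with 91590 peaks.

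**Figure D3:**
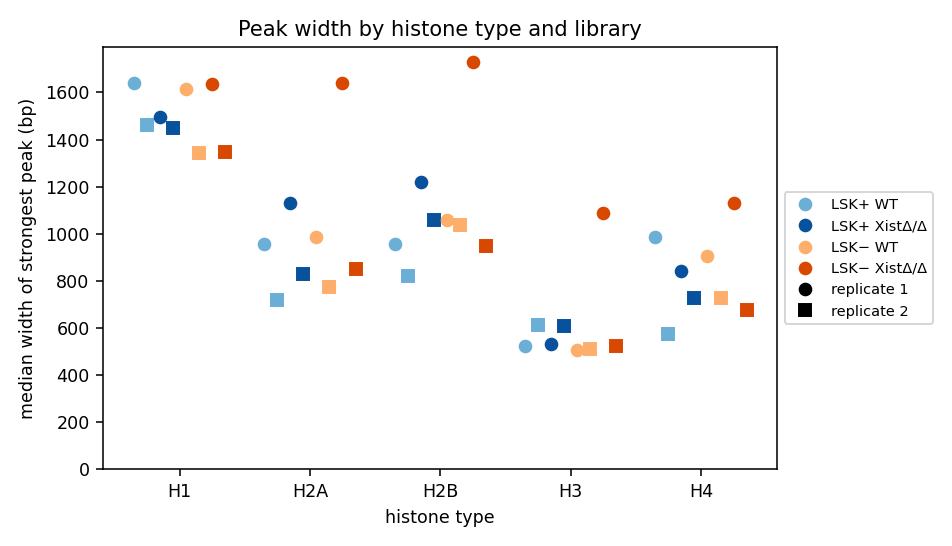
Median width in bp of the strongest peak over the genes of each histone type, with 1 point per library, coloured by group, circles for replicate 1 and squares for replicate 2. H1 medians lie between 1345 and 1641 bp in all libraries, and LSK− XistΔ/Δ replicate 1 has the widest median for each core histone type. The H1 medians include peaks of neighbouring genes counted for Hist1h1t and Hist1h1a. The H2A and H3 medians also include peaks near the starts of neighbouring genes of another type.

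Within H1, the somatic gene Hist1h1c (median percentile 97.3 over the 8 libraries) was the highest with a peak at its own start, and Hist1h1b (88.3) and Hist1h1a (90.9) were the lowest. The Hist1h1a median rests on the neighbouring Hist1h3a and Hist1h4a peak in all libraries but LSK− WT replicate 2 and LSK− XistΔ/Δ replicate 2. In those, the peak at its own start had percentiles of 71.5 and 84.6, in that order. The strongest peak of Hist1h1b had its summit 1083 to 1132 bp past the start, beyond the end of that gene. In LSK+ WT replicate 1 this peak did not reach the Hist1h1b start. Hist1h1b had percentiles of 89.9 and 38.5 (WT) or 95.4 and 75.8 (XistΔ/Δ) in LSK+ replicates 1 and 2, and of 93.8 and 82.6 (WT) or 95.5 and 86.8 (XistΔ/Δ) in LSK− replicates. Replicate 2 was the lower in every group, LSK+ WT replicate 2 was the lowest of all, and the groups overlapped. Hist1h3e (98.4) and Hist1h3f (97.4) led the H3 genes and Hist1h4c (98.5) and Hist1h4d (97.5) the H4 genes. The lowest H3 genes were Hist2h3c1, with a peak in 3 libraries, and Hist1h3d (78.5), and the lowest H4 genes Hist1h4k, also with a peak in 3 libraries, and Hist1h4m.

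Outside chromosomes 13 and 3, the single H4 gene Hist4h4 had percentiles of 88.5 and 87.2 (WT) or 96.3 and 94.2 (XistΔ/Δ) in LSK+ replicates 1 and 2, and of 97.9 and 98.0 (WT) or 99.6 and 94.7 (XistΔ/Δ) in LSK− replicates. Both LSK+ WT values were the lowest of the 8. Its difference between the WT cell types had an adjusted p of 0.108 (limma, Benjamini-Hochberg, as defined below). The chromosome 11 H2A gene Hist3h2a had a peak in all libraries (82.4 to 98.8), and its neighbour Hist3h2ba, an H2B gene, was weaker, at 40.6 in LSK+ WT replicate 1, 62.6 and 48.98 in LSK+ XistΔ/Δ, 58.7 in LSK− WT replicate 1 and 60.9 and 11.3 in LSK− XistΔ/Δ, with no peak in either WT replicate 2 library.

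**Figure D4:**
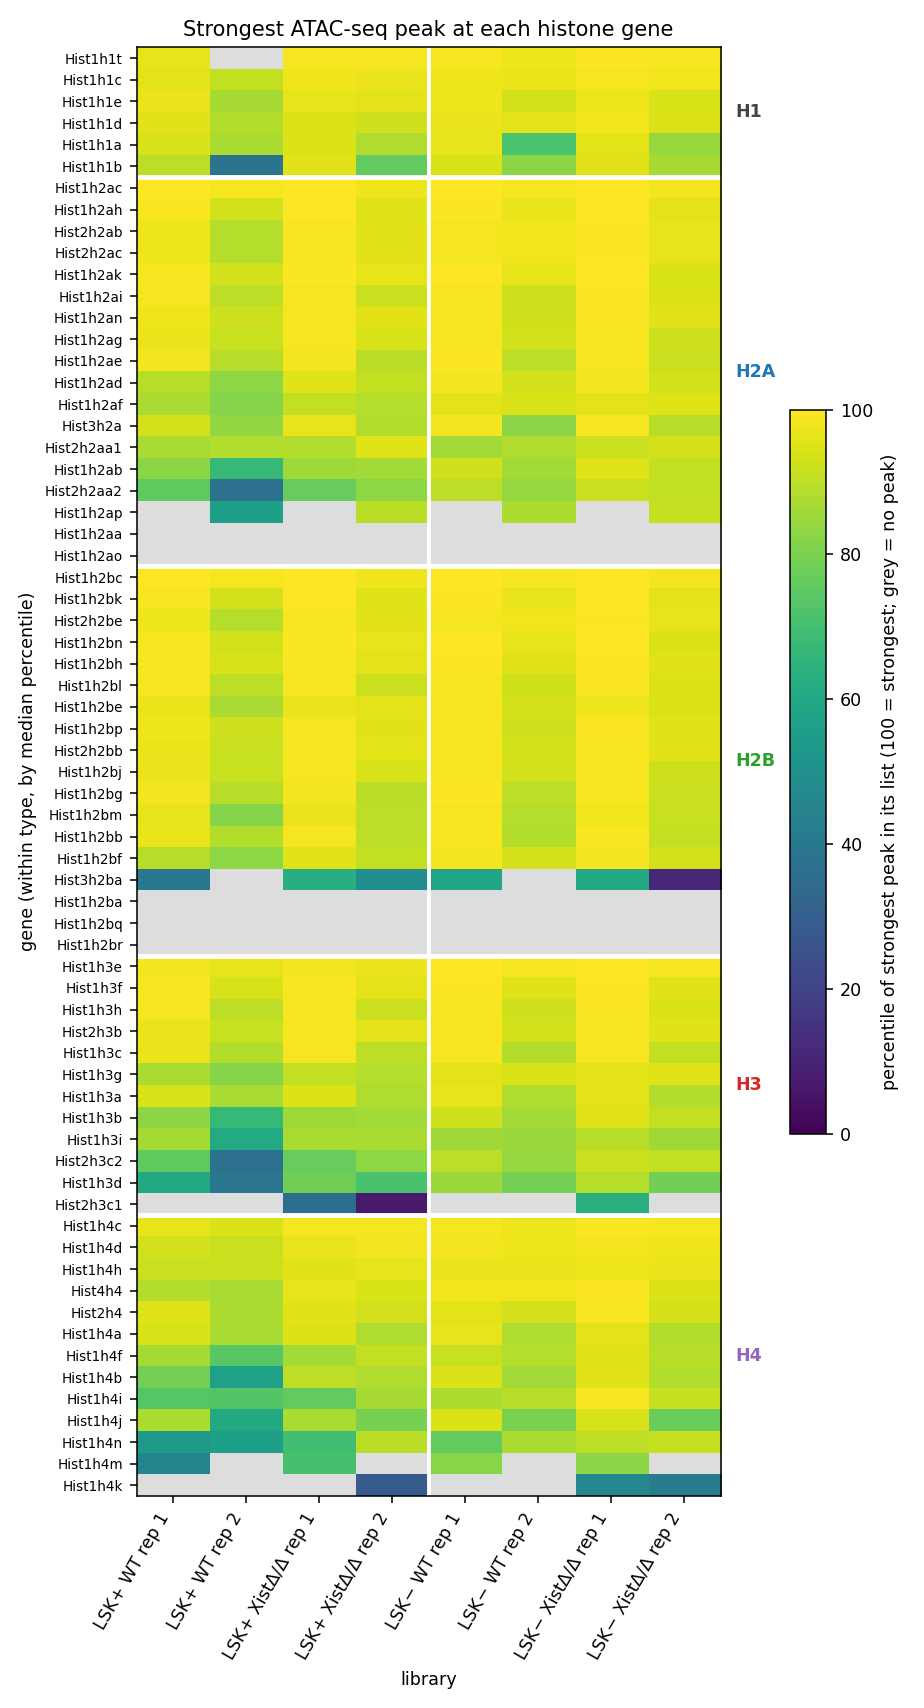
Percentile of the strongest peak at each of the 67 histone genes (rows, grouped by type and ordered by median) in each of the 8 libraries (columns); 100 is the strongest peak of a list and grey means no peak. Most rows are near the top of the scale in all columns, the 5 fully grey rows are the members without a peak, and LSK+ WT replicate 2 is darker (lower) than the other columns for genes such as Hist1h1b (38.5).

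The first comparison asked whether members gained or lost a peak without Xist. In LSK+ cells 1 member, the H3 gene Hist2h3c1, had a peak in both XistΔ/Δ libraries and in neither WT library; 1.26% of all genes did. Its percentile was 36.2 and 7.37, and the strongest peaks of the 2 libraries lay at different places, with summits 509 bp before and 668 bp past the start. Of the 50-base words within 500 bp of the Hist2h3c1 start 5.25% are unique, and 59.4% over the gene and its 1 kb flanks. In LSK− cells 1 member, the H4 gene Hist1h4k, was gained, against 0.885% of all genes, at percentiles 46.3 and 42.4. It also had a peak, at 29.003, in LSK+ XistΔ/Δ replicate 2, so that 3 of 4 XistΔ/Δ and 0 of 4 WT libraries had one. No member lost its peak in either cell type, as 0% of all genes did in LSK+ and 0.0144% in LSK− cells. A count of 1 of 67 is near the share over all genes.

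Peak strength was then compared in limma over the 12935 genes with a peak in all 8 libraries, 56 of them members, on the ranks within each library turned into normal scores, with the replicate number as a block. A difference of 1 is 1 SD of the scores over genes. For XistΔ/Δ against WT, 0 of 56 members passed an adjusted p (Benjamini-Hochberg) of 0.05 in LSK+ cells in either direction, where 1 gene in all was higher (0.00773%) and none lower (0%), and 0 of 56 passed in LSK− cells (0% of all genes in both directions). At an unadjusted p under 0.05, 2 members were higher and 0 lower in LSK+ cells (all genes 3.08% and 2.74%), and 0 were higher and 1 lower in LSK− cells (1.61% and 1.35%).

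The median difference over members was 0.02 in LSK+ cells and −0.18 in LSK− cells, against 0.00 for all genes in both, and the median SE of a member was 0.24. In LSK+ cells it was 0.17 within replicate 1 and −0.11 within replicate 2, and in LSK− cells 0.00 and −0.28. By type the LSK− medians lay between −0.24 (H3) and −0.09 (H2A), and 44 of 56 members had a negative difference. Ranked by fold, the medians were −0.58 and −0.38.

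The raw percentiles read differently from the ranks. Both XistΔ/Δ libraries lay above both WT libraries at 19 of 56 members in LSK+ cells and at 8 in LSK− cells (34% and 39.2% of all genes), and below at 0 in both (0.51% and 0.186%). The LSK+ share, 33.9%, was near that of all genes, and the LSK− share, 14.3%, was below it. By fold, 7 members (12.5%) lay above and 23 (41.1%) below in LSK+ cells, against 25.4% and 4.89% of all genes, so the direction there turned with the column read.

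The WT cell types differed at 4 members. In LSK− against LSK+ WT cells, 4 of 56 members were higher and 0 lower at an adjusted p of 0.05 (limma, Benjamini-Hochberg), where 1.24% of all genes were higher (160) and 1.24% lower (161). At an unadjusted p under 0.05 there were 17 higher and 0 lower members, against 8.39% and 8.31% of all genes. The median difference over members was 0.31 against 0.00 for all genes, 0.32 within replicate 1 and 0.33 within replicate 2, and 49 of 56 members were positive. All 11 H4 genes tested were positive, with a median of 0.52, and H2B genes had the lowest median, 0.18.

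Hist1h4b, an H4 gene of the third chromosome 13 group, had percentiles of 79.0 and 57.3 (WT) or 89.99 and 87.9 (XistΔ/Δ) in LSK+ replicates 1 and 2, and of 94.7 and 86.1 (WT) or 95.1 and 88.7 (XistΔ/Δ) in LSK− replicates. The LSK+ WT libraries were the lowest 2, and the other groups overlapped. Its score was 1.01 ± 0.22 (SE, n = 2 libraries a group) higher in LSK− than in LSK+ WT (limma adjusted p = 0.0270), 1.07 within replicate 1 and 0.95 within replicate 2. In XistΔ/Δ cells the difference was 0.19 ± 0.22 (limma adjusted p = 0.733), and the interaction had an adjusted p of 1.00 in limma (unadjusted 0.0197), so a change of the cell type difference with genotype was not shown.

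Hist1h3d, an H3 gene of the same group, had narrow peaks of 214 to 288 bp. Its percentiles were 60.8 and 39.2 (WT) or 78.4 and 71.4 (XistΔ/Δ) in LSK+ replicates 1 and 2, and 85.1 and 79.0 (WT) or 88.8 and 78.6 (XistΔ/Δ) in LSK− replicates. Again both LSK+ WT libraries were the lowest, and both LSK− WT libraries lay above both LSK+ WT libraries. The difference in score was 1.02 ± 0.23 (limma adjusted p = 0.0317), 1.01 and 1.03 within the replicates. In WT replicates 1 and 2 its LSK+ summits held 99 and 49 fragments over local backgrounds of 28.1 and 14.1, and its LSK− summits 185 and 129 over 47.4 and 23.6.

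The other called members, the H3 gene Hist2h3c2 and the H2A gene Hist2h2aa2 on chromosome 3, share 1 peak. Its summit lay 623 to 627 bp past the start of Hist2h2aa2, beyond the end of that gene, and upstream of the Hist2h3c2 start. Both genes are among the 5 members with between 5% and 50% unique 50-base words. The percentiles of this peak were 75.7 and 37.5 (WT) or 76.7 and 82.9 (XistΔ/Δ) in LSK+ replicates 1 and 2, and 90.1 and 84.3 (WT) or 92.1 and 91.0 (XistΔ/Δ) in LSK− replicates. The LSK− libraries all lay above the LSK+ libraries. The difference in WT was 1.07 ± 0.25 (limma adjusted p = 0.0365), 0.76 within replicate 1 and 1.37 within replicate 2, and in XistΔ/Δ cells 0.71 ± 0.25 (limma adjusted p = 0.149). In LSK+ WT replicate 2 this summit held 16 fragments. The 4 calls thus rested on 3 peaks and on ranking by −log10 p: ranked by fold, 0 members passed, at a median difference of 0.06, and leaving out LSK+ WT replicate 2, LSK− WT replicate 1 or LSK− WT replicate 2 also left 0.

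**Figure D5:**
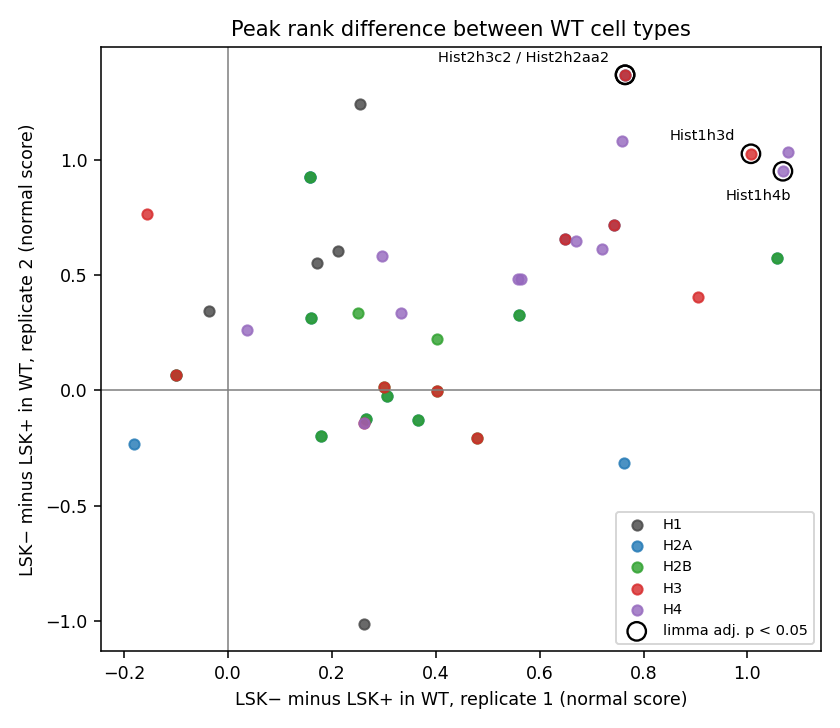
Difference in peak rank (normal score, LSK− minus LSK+) in WT cells within replicate 1 (x axis) and within replicate 2 (y axis) for the 56 histone genes with a peak in all libraries, coloured by type; genes that share a peak fall on 1 point. Rings mark the 4 genes past a limma adjusted p of 0.05 (Hist2h3c2 and Hist2h2aa2 share a ring), and 50 of 56 genes lie right of 0 in replicate 1 and 39 above 0 in replicate 2. The strongest peak of some genes, such as Hist1h1a, was not the same site in all libraries.

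Both LSK− WT libraries lay above both LSK+ WT libraries in raw percentile at 23 of 56 members (41.1%, against 17% of all genes) and below at 0 (6.29%); by fold the counts were 18 (32.1%) and 13 (23.2%), against 16.7% and 7.92% of all genes. In XistΔ/Δ cells 0 of 56 members passed in limma, where 0.765% of all genes were higher in LSK− cells and 2.23% lower, and at an unadjusted p under 0.05 9 members were higher and 0 lower (7.24% and 9.39% of all genes). The median difference was 0.12 against 0.04 for all genes, 0.18 and 0.15 within the replicates, and 44 of 56 were positive. Non-overlapping higher percentiles were seen at 13 members (23.2%, against 21.9% of all genes) and lower ones at 0 (10.4%). The interaction of genotype and cell type called 0 members and 0% of all genes in both directions in limma, with 0 members higher and 2 lower at an unadjusted p under 0.05 (1.46% and 2.16% of all genes). Both directions together came to 3.57% of members and 3.62% of all genes.

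Peak width called 0 of 56 members and 0% of all genes in each of the 5 contrasts in limma. At an unadjusted p under 0.05 3 members were higher and 0 lower for genotype in LSK+ cells (2.17% and 1.52% of all genes), and 0 and 0 in LSK− cells (2.04% and 1.32%). For cell type, 1 was higher and 0 lower in WT (3.89% and 3.59%) and 5 and 0 in XistΔ/Δ (2.652% and 3.34%), and the interaction had 0 and 0 (1.55% and 1.62%). Median differences over members were 0.17, −0.03, 0.34, 0.17 and −0.10 in that order, with a median SE of 0.38, or 0.54 for the interaction.

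All 23 listed regulators, processing factors and chaperones had a peak in all 8 libraries, among them Npat (median percentile 98.8), which drives histone transcription from the locus body, Hinfp (98.8), which binds H4 promoters, and Slbp (97.1), which binds the mRNA stem-loop. Casp8ap2, which encodes the histone locus body protein FLASH, was the highest (99.7) and Nasp, a histone chaperone, the lowest (81.1). Of 12 genes for replication-independent variants 10 had a peak in all libraries, from H2afv (99.6) down to H2afy2 (59.7) and H1foo (53.5), the oocyte H1, which each had one in 7.

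Across the series, lists held 29829 to 91590 peaks, and the most common background in a list was 0.48 to 3.87 fragments. A peak within 3 kb of the Xist start was listed in 4 of 4 WT libraries and in 1 of 4 XistΔ/Δ libraries, LSK− replicate 2, at percentile 26.9. Kit, which both sorts select, had a peak in all 8 libraries, and Ly6a, which encodes the SCA-1 antigen that marks LSK+ cells, had none in the 4 LSK+ libraries. Its only peak was in LSK− XistΔ/Δ replicate 1 (percentile 29.6), against the sort label. Of 5 markers of cells the sort removes, Cd8a and Ly6g had no peak, Cd3e had one in 1 library, Cd79a in 5 and Itgam in 7, and the part of other cells in the results was not tested. In peak lists from pools of sorted cells, a difference in accessibility and a difference in the mix of cells, or of cell cycle phases, cannot be told apart.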

How the data were processed

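ATAC-seq peak lists of 8 libraries were analysed. The authors trimmed reads with Trim Galore, aligned them to mm10 with Bowtie2 (2.3.5.1), removed alignments of quality below 30 and mitochondrial reads with SAMtools (1.10), and called peaks per library with MACS2 (2.2.7.1, paired-end fragments, q of 0.01). The deposited columns used were the fold enrichment at the summit, the −log10 p and −log10 q, the coordinates and the summit offset; the deposited score, a display column, was not used. Per-library fragment totals were not used here. Depth was read instead from the summit fragments and local background that MACS2's fold and −log10 p imply; 83.5% to 98.4% of peaks gave a whole fragment count, and these values are estimates.

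Genes came from GENCODE M21 (20780 autosomal protein-coding genes), and the strongest peak by −log10 p overlapping a gene or within 1 kb was taken in each list. Ranks among the 12935 genes with a peak in all 8 libraries became normal scores and were fitted in limma (3.58.1, R 4.3.3) with 4 groups and the replicate number as a block; p-values were Benjamini-Hochberg adjusted over all genes. The number marks a shared platform and read length, and over genes replicate differences correlated between groups at r = 0.496 to 0.723 for rank and 0.312 to 0.450 for width. The fit was also run on simulated scores, and the rates of true and false calls there are not reported here. Named genes were the members without a peak, the 2 highest and 2 lowest of each type by median percentile, those gained, lost or called, those on chromosomes 6 and 11, the germ-cell genes, and the extreme head-to-head pairs; for the 2 other lists, the highest and lowest gene. Hist1h1d, Hist1h4n, Hist1h2ap, Npat, Hinfp, Slbp and H2afy2 were named after their values were seen. So were members named only because a peak was counted for a neighbour. Members and lists were chosen with earlier results of these data known. Unique words of 50 and 100 bases were counted on both strands of GRCm38. Some genes of the marker lists are not reported here.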

Additional observations from a re-analysis of the deposited data

How the results depend on the processing

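Ranking by fold in place of −log10 p reversed the members' standing: their median percentile minus that of all genes was −8.71 by fold and 10.7 by −log10 p, and 14.9 in the 29829 top peaks of each list (a comparison chosen after seeing the data). The 4 members called between the WT cell types became 0 without the replicate block, by fold and in the top peaks, 2 with peaks overlapping the gene itself, and 0 to 6 when a library was left out: 0 without LSK+ WT replicate 2, LSK− WT replicate 1 or LSK− WT replicate 2, and 2 without LSK+ WT replicate 1. The adjusted p of these 4 genes in limma ranged from 0.0217 to 0.882 over the alternatives, with no change of sign. Without the replicate block 0 members were called in every other contrast too, as with it. The XistΔ/Δ cell type contrast gave 0 to 2 calls when a library was left out (1 without LSK+ WT replicate 1 or LSK+ WT replicate 2, and 2 without LSK− XistΔ/Δ replicate 2).

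The member gained in LSK+ cells became 0 in the top peaks and within 500 bp of the start, 2 with peaks overlapping the gene, and 1 to 3 when a library was left out (3 without LSK+ WT replicate 1, 2 without LSK+ XistΔ/Δ replicate 1). The one gained in LSK− cells became 0 in the top peaks and 1 to 2 when a library was left out (2 without LSK− WT replicate 1 or LSK− XistΔ/Δ replicate 2). Members whose genotypes did not overlap, with the share of all genes in parentheses, went from 19 higher in LSK+ cells to 7 by fold (25.4%) and 5 in the top peaks (7.13%), and from 0 lower to 23 (4.89%) and 5 (10.96%). In LSK− cells they went from 8 higher to 0 in the top peaks (8.40%), and from 0 lower to 3 by fold (2.02%) and 6 in the top peaks (7.91%). Between cell types, 0 lower in WT became 13 by fold (7.92%), and 13 higher in XistΔ/Δ became 33 by fold (23.7%). The causes of these shifts were not tested. In 162 further comparisons of a summary value with an alternative, counts stayed within 1.5 times and other values within the spread between libraries. Many of these were counts of 0 that stayed at 0. Among comparisons of median differences over members and of called genes, 122 were the same. Another 40 medians moved by more than the spread between replicates, and 26 comparisons of called genes were weaker, with no change of sign. LSK+ WT replicate 2 had the lowest background and summit fragments, which limits what its values can show.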
